A study of Mus musculus with 15 samples.

Results

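The transcription factor p53 and genes of its circuit (Trp53, Mdm2, Mdm4, Ccng1, Trp53inp1, Phlda3 and Zmat3) were followed through the activation of mouse spleen lymphocytes. Members were all array probe sets whose annotation names exactly 1 of these 7 genes. That rule found 14 of the 45101 probe sets, for 6 of the 7 genes, and Trp53 itself was not analysed here. Of these 14 probe sets, 11 passed the filter on low values (a mean of at least 5 in 1 or more groups), and all 6 genes had at least 1 that passed. The other 3 stayed at or near the lowest value of the table on every array.

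The series measured total RNA with Affymetrix arrays in 15 samples of splenic lymphocytes from B6x129 mice, in 5 groups of 3 arrays. The groups are B cells treated for 4 h with 25 ug/ml lipopolysaccharide (LPS, a bacterial cell wall component that activates B cells), untreated quiescent B cells (0 h), resting T cells (0 h), and T cells treated with 7.5 ug/ml concanavalin A (ConA, a plant lectin that activates T cells) for 4 h or 14 h. No group was cultured for 4 h or 14 h without the activator, so activation and time in culture cannot be told apart. The labels number the replicates but do not say whether they came from separate animals or cultures, so the p-values measure the spread between these samples, which may be technical.

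p53 is a transcription factor that accumulates after DNA damage and other stress and turns on genes that halt the cell cycle, repair DNA or kill the cell. Mdm2 and Mdm4 hold p53 in check, and because Mdm2 is itself a p53 target the circuit forms a feedback loop. Lymphocytes are highly sensitive to p53-driven death, and activation takes them out of rest towards growth and division.

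Levels are given as log2 GCRMA signal, the unit the authors deposited, so a difference of 1 is a doubling of signal. The lowest value, 2.24, is a floor held by 39.1% of all values, and a difference from a group under about 4 is compressed by it. Errors of levels are SDs over 3 arrays, and errors of changes are standard errors from a limma model over all 15 arrays. A gene was called changed at a Benjamini-Hochberg adjusted p under 0.05 over the 9044 genes tested with their brightest probe set, or over the 19124 probe sets tested when every probe set was a row. Equal RNA mass was labelled for each array and the authors' normalization aligned the arrays, which hides any change in RNA per cell. In such bulk samples, fewer cells of a type and less RNA per cell cannot be told apart.

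The cell labels fitted their markers, and markers of other cells were also detected. The summed signal of 5 B cell markers was 14.1 to 14.5 (log2) on B LPS arrays, 16.1 to 16.2 on B 0 h arrays and at most 8.56 on T cell arrays, where Cd79a and Pax5 were under 4. Group means in T cells were 6.90 to 7.65 for Cd79b, 6.08 to 7.03 for Ms4a1 and 4.80 to 5.18 for Cd22. The summed signal of 6 T cell markers was 14.3 to 15.2 on T cell arrays and at most 6.55 on B cell arrays, where Cd3d, Cd3g, Cd4 and Thy1 were under 4. Cd3e averaged 5.31 in B LPS and 5.04 in B 0 h, and Cd8a 3.11 and 3.98. Macrophage markers (7 genes) summed to 11.5 to 11.7 on B LPS arrays and 12.8 to 12.9 on B 0 h arrays, and 6 of 7 fell with LPS. Csf1r and Adgre1 were under 4 on every B LPS array. Mpeg1 averaged 11.48 in B LPS and 11.15 in B 0 h, so it made up most of the B LPS sum. The macrophage sums were at most 8.51 on T cell arrays, with Csf1r, Adgre1, Vcam1 and Spic under 4, and 7 of 7 genes were higher in B 0 h than in T 0 h. In the T cell groups, means were 5.68 to 7.16 for Lyz2, 4.96 to 6.98 for Mpeg1 and 4.02 to 4.36 for Cd68. Erythroid markers (7 genes) summed to 10.9 to 11.0 on B LPS arrays and 12.6 to 12.7 on B 0 h arrays, and 7 of 7 fell. The erythroid sums of T cells were 12.4 to 12.5 before ConA, 8.24 to 8.35 after 4 h and 7.59 to 7.77 after 14 h, with 6 of 7 genes lower at both times. Between resting cells, 6 of these 7 genes were higher in B 0 h than in T 0 h. Car1 was lower, with means of 9.17 in B 0 h and 12.18 in T 0 h. Natural killer cell markers (4 genes, 3 tested) summed to 4.69 to 4.97 on B LPS arrays and 7.03 to 7.24 on B 0 h arrays, and to 12.8 before ConA, 11.2 to 11.4 after 4 h and 11.4 to 11.5 after 14 h, with Ncr1 under 4 throughout. Of the 3 tested, 2 fell with LPS and 3 at both times of ConA. Markers of cycling cells (4 genes) summed to 11.2 to 11.3 on B LPS arrays and 12.2 to 12.3 on B 0 h arrays, and to 10.1 to 10.2 before ConA, 8.69 to 8.80 after 4 h and 8.24 to 8.42 after 14 h. They fell in 4 of 4 genes with LPS and in 3 and 4 of 4 at 4 h and 14 h of ConA. Plasma cell markers (4 genes, 1 tested) summed to 11.0 on B LPS arrays and 11.7 to 11.9 on B 0 h arrays. Their T cell sums were 12.1 to 12.3 before ConA, 11.8 to 12.0 after 4 h and 11.3 to 11.4 after 14 h. Jchain, the gene tested, fell with LPS and at both times of ConA. The part of these other cells in the results on the p53 circuit was not tested. Xist, the RNA made from the inactive X chromosome of female cells, lay at 2.24 to 2.42 on B LPS arrays and 12.0 on B 0 h arrays; its T cell arrays lay at 12.1 to 12.3 before ConA, 2.38 to 4.33 after 4 h and 11.7 to 11.9 after 14 h. Uty, Kdm5d and Eif2s3y, genes of the Y chromosome, were at 6.04 or above on every array. The labels do not give the sex of the mice, so in each comparison of a 4 h group with another time this difference in Xist and activation cannot be told apart. Xist was not called in T ConA 14 h against T 0 h or in B 0 h against T 0 h (limma adjusted p = 0.214 and 0.505), but Y-linked genes were. In T ConA 14 h against T 0 h, Kdm5d changed by -1.30, Uty by -0.79 and Eif2s3y by -0.65 (limma adjusted p = 6.07e-06, 4.11e-04 and 6.85e-04). In B 0 h against T 0 h, Kdm5d changed by -0.62 and Uty by 0.37 (adjusted p = 0.00282 and 0.0395). The part of these differences in the results was not tested. T 0 h replicate 2 and T ConA 4 h replicate 1 stood apart in the dap spike-in control. Its 3' minus 5' signal was 4.52 and 5.35 there, against 0.21 to 1.96 on the other 13 arrays. Results were therefore also computed without these 2 arrays. On the other arrays the control lay at 0.21 to 0.78 in B cells and at 1.39 to 1.96 in T cells. In each comparison of B with T cells, this difference and cell type cannot be told apart, and its part in the results was not tested.

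The promoter sequences of Mdm2 and Ccng1, both direct p53 targets, are given because each holds a match to the p53 decamer, a single copy of the repeated element to which p53 binds. They are RefSeq windows of GRCm38.p6 from 250 bases before to 50 bases after the transcription start, given 5' to 3' on the gene's strand, with the decamer in capitals. The Mdm2 window is chr10:117710709-117711008 (minus strand), and the Ccng1 window is chr11:40755237-40755536 (minus strand).
Mdm2: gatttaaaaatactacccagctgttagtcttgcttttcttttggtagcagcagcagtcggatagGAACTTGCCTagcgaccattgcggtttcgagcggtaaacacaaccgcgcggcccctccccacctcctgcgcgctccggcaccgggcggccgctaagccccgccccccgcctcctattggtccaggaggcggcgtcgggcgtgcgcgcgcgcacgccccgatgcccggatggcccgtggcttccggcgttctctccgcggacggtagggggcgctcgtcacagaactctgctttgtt
Ccng1: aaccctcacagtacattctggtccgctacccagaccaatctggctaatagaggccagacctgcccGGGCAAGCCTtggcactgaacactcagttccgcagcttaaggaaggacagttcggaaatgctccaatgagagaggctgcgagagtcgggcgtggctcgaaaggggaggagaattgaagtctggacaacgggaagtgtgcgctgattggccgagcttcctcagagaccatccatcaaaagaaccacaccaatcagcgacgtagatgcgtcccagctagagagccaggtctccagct
The match began 186 bases before the start of Mdm2 (GAACTTGCCT) and 185 bases before that of Ccng1 (GGGCAAGCCT). Windows were available for 4 of the 6 genes, 5 windows in all, and the windows of Mdm4 (2) and Phlda3 (1) held no match. On both strands, 8.36% of 32851 promoter windows of this length held a p53 decamer. The E-box CACGTG, the element bound by Myc, was in 0 of the 5 windows and in 7.15% of the 32851. A match is a description of the letters and no evidence of binding in these cells.

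B cell activation was accompanied by lower signal of 3 of the 6 genes and higher signal of none by their brightest probe sets. Trp53inp1 fell 6.42-fold, and Zmat3 and Mdm4 fell as well. Over all genes tested, 79.9% were called in B LPS against B 0 h, 37.6% higher and 42.3% lower, and 3 of 6 is not above that background. At an unadjusted limma p under 0.05 the 6 genes gave 0 higher and 4 lower differences. The median change of the 6 genes was -0.37, against -0.05 over all genes.

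T cell activation gave another picture. After 4 h of ConA, Phlda3 and Trp53inp1 rose and Mdm4 fell, 3 of 6 genes called, against 65.9% of all genes (33.4% higher, 32.5% lower). After 14 h, Phlda3 and Trp53inp1 were still above T 0 h, and Mdm4 and Mdm2 were below it, 4 of 6 called against 68.4% of all genes (36.6% higher, 31.9% lower). Phlda3 passed the filter on low values only through the T ConA 4 h group, so its part in these and all other counts supports nothing. The 2 ConA comparisons share the T 0 h arrays and are not independent. The median change of the 6 genes was 0.10 at 4 h and -0.18 at 14 h, where all genes had medians of 0.0024 and 0.03.

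**Figure D1:**
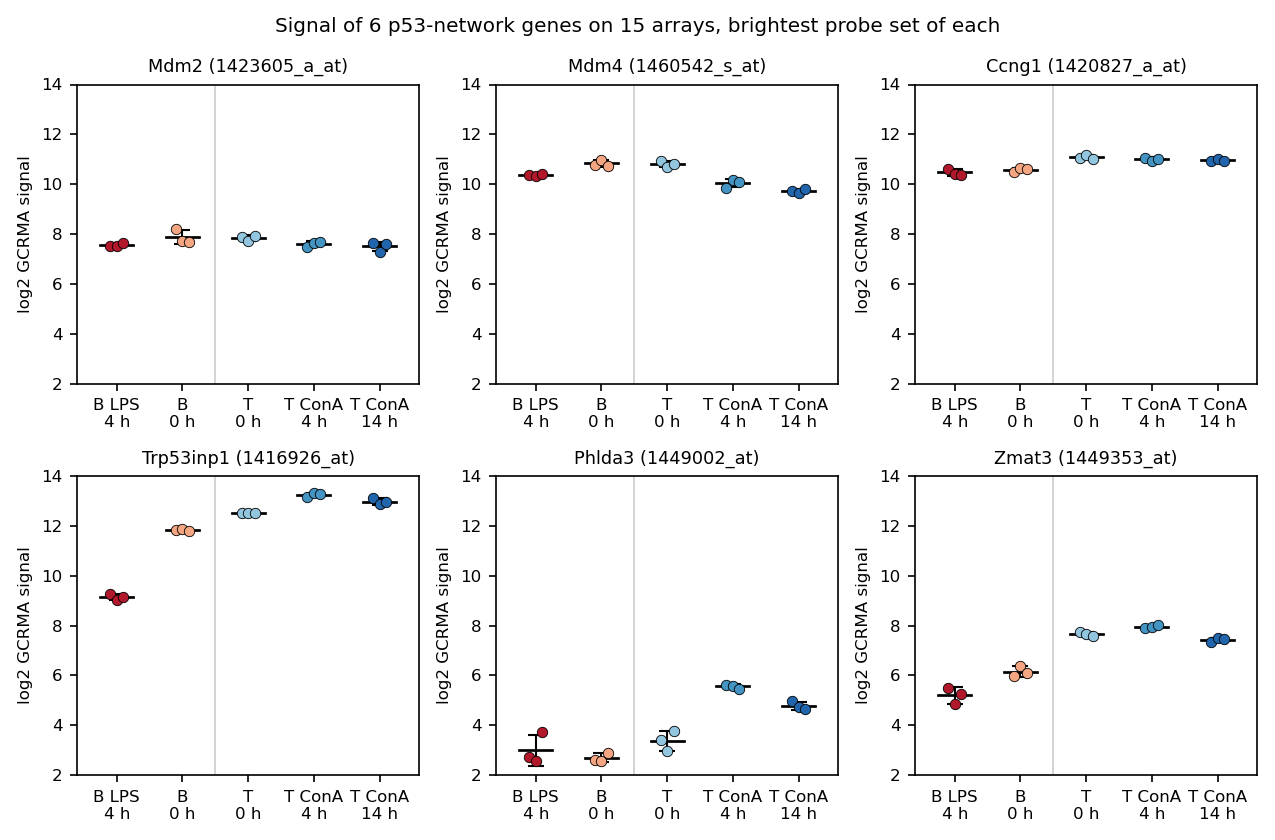
log2 GCRMA signal (vertical axis) of the brightest probe set of each of the 6 genes on every array (points) with the group mean (line), for B LPS 4 h, B 0 h, T 0 h, T ConA 4 h and T ConA 14 h. Trp53inp1 lay at 9.03 to 9.25 on B LPS arrays and at 11.80 to 11.85 on B 0 h arrays, and Phlda3 lay highest on T ConA 4 h arrays.

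Mdm2 encodes the ubiquitin ligase that marks p53 for destruction. Its brightest probe set read 7.53, 7.53 and 7.65 on the B LPS arrays, and 8.19, 7.73 and 7.67 on the B 0 h arrays. All B LPS arrays lay below all B 0 h arrays, by a margin that was small beside the spread of the B 0 h group. The difference was -0.30 ± 0.13 and was not called (limma adjusted p = 0.0525, 95% interval -0.58 to -0.01).

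In T cells Mdm2 read 7.87, 7.70 and 7.93 at 0 h, 7.48, 7.65 and 7.70 at 4 h of ConA and 7.65, 7.30 and 7.58 at 14 h. The 0 h arrays were the highest at both comparisons, and the 4 h and 14 h arrays overlapped. The difference at 4 h was -0.23 ± 0.13 (limma adjusted p = 0.146). At 14 h Mdm2 fell by 0.33 on the log2 scale (SE 0.13, limma adjusted p = 0.0401), a call that was lost when all genes entered the adjustment with no filter on low values (adjusted p = 0.101) or when T ConA 14 h replicate 2 was left out (adjusted p = 0.178). Without T 0 h replicate 1 or replicate 3, or without T ConA 14 h replicate 3, the adjusted p was 0.0959, 0.121 and 0.0512. Between the 5 groups, the means of Mdm2 spanned 0.35, from 7.51 ± 0.19 in T ConA 14 h to 7.86 ± 0.28 in B 0 h.

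A second Mdm2 probe set (1427718_a_at) read 8.21, 8.13 and 8.33 on B LPS arrays, and 8.48, 8.49 and 8.72 on B 0 h arrays, again with no overlap. The fit over all probe sets gave -0.34 ± 0.54, which was not called. On T cell arrays it read 7.02, 5.68 and 6.96 at 0 h, 4.60, 7.11 and 7.16 at 4 h and 6.94, 6.60 and 6.86 at 14 h. The lowest readings at 0 h and 4 h, 5.68 and 4.60, were those of the 2 arrays that stood apart in the spike-in control. Without these 2 arrays the fall in B LPS was called (-0.34 ± 0.10, limma adjusted p = 0.00871), as was a difference between T ConA 14 h and 4 h of -0.33 ± 0.11 (adjusted p = 0.0301). The third Mdm2 probe set (1457929_at) stayed at 2.24 to 2.33 on all arrays.

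Mdm4, a relative of Mdm2 that binds p53 and blocks its activity, fell in all 3 activation comparisons by its brightest probe set. It read 10.39, 10.34 and 10.40 on B LPS arrays, and 10.79, 10.98 and 10.73 on B 0 h arrays. The B LPS arrays lay together below all B 0 h arrays. The change was -0.45 ± 0.10 (limma adjusted p = 5.91e-04).

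In T cells Mdm4 read 10.94, 10.70 and 10.83 at 0 h, 9.85, 10.17 and 10.09 at 4 h and 9.73, 9.66 and 9.82 at 14 h. The 3 times did not overlap, and the level was lower at each later time. Mdm4 changed by -0.79 ± 0.10 at 4 h (limma adjusted p = 6.53e-06) and by -1.09 ± 0.10 at 14 h (adjusted p = 2.48e-07). The step between 4 h and 14 h was -0.30 ± 0.10 (adjusted p = 0.0197). That call was lost in 6 of the 27 alternative settings tried, among them a fit on those groups alone (adjusted p = 0.0537) and fits without T ConA 4 h replicate 2, T ConA 4 h replicate 3 or T ConA 14 h replicate 2 (0.0857, 0.0648 and 0.0724).

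The second tested Mdm4 probe set (1419558_at) did not show this fall. It read 7.94, 8.04 and 7.94 on B LPS arrays, and 7.89, 7.93 and 7.53 on B 0 h arrays. Its T cell arrays lay between 6.54 and 7.05 at all 3 times, with the groups overlapping. Its differences were 0.19 ± 0.13 in B LPS, -0.01 ± 0.13 in T ConA 4 h and -0.05 ± 0.13 in T ConA 14 h, none of them called (limma adjusted p = 0.200, 0.956 and 0.773). The name of the brighter probe set, 1460542_s_at, carries the manufacturer's mark for probes that can match more than 1 transcript. The remaining Mdm4 probe sets were at the floor on every array, save 1453982_at on the B LPS arrays, at 2.27 to 2.78.

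Ccng1 encodes cyclin G1, a p53 target that brings a phosphatase to Mdm2. Its brightest probe set (1420827_a_at) was nearly flat. It read 10.63, 10.42 and 10.36 on B LPS arrays, and 10.49, 10.63 and 10.61 on B 0 h arrays, which overlapped. The T cell means were 11.08 ± 0.07 at 0 h, 11.01 ± 0.07 at 4 h and 10.95 ± 0.04 at 14 h. None of its activation differences was called, and the 95% intervals were -0.28 to 0.06 for B LPS, -0.24 to 0.10 for T ConA 4 h and -0.30 to 0.04 for T ConA 14 h. After cyclic loess all 3 were called lower (-0.23, -0.19 and -0.29).

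A second Ccng1 probe set (1450016_at) rose in every activation comparison. It read 9.54, 9.56 and 9.49 on B LPS arrays, and 9.15, 9.14 and 8.99 on B 0 h arrays. In T cells it read 7.96, 8.14 and 7.91 at 0 h, 9.13, 9.04 and 8.90 at 4 h and 8.85, 8.96 and 8.99 at 14 h. The activated arrays lay above the 0 h arrays without overlap in both cell types. The rises were 0.44 ± 0.08 in B LPS (limma adjusted p = 3.31e-04), 1.02 ± 0.08 in T ConA 4 h (adjusted p = 2.60e-07) and 0.93 ± 0.08 in T ConA 14 h (adjusted p = 5.36e-07). The third (1450017_at) read 9.32, 9.26 and 9.45 on B LPS arrays and 9.18, 8.92 and 8.94 on B 0 h arrays, and its lowest T cell readings, 8.01 and 7.89, were on those same 2 arrays. It was called in no activation comparison over all arrays, and without those 2 arrays it rose by 0.33 ± 0.09 in B LPS (adjusted p = 0.00677) and by 0.37 ± 0.11 in T ConA 4 h (adjusted p = 0.0157). The 3 probe sets of Ccng1 therefore differ in their calls, and the data do not settle the direction for the gene.

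**Figure D2:**
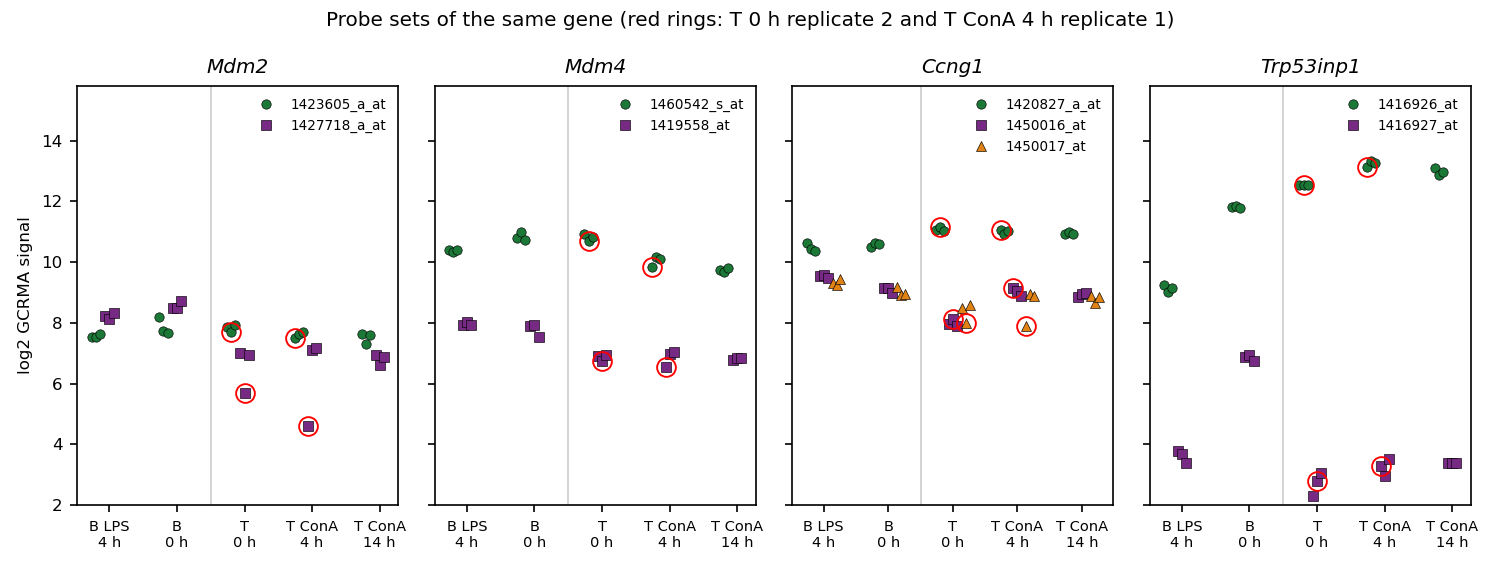
log2 GCRMA signal (vertical axis) of every tested probe set of the genes with more than 1 tested probe set, in the 5 groups; points are arrays and red rings mark T 0 h replicate 2 and T ConA 4 h replicate 1. For Ccng1 1450016_at the activated arrays lie above the 0 h arrays in both cell types, while 1420827_a_at stays within 10.36 to 11.17.

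Over all probe sets as rows, the members gave 1 higher and 4 lower calls of 11 in B LPS, against 37.6% higher and 38.2% lower of all probe sets tested (75.8% called). The counts were 4 higher and 1 lower in T ConA 4 h (31.5% higher and 29.6% lower of all, 61.1% called), and 4 higher and 2 lower in T ConA 14 h (31.7% higher and 33.7% lower, 65.3% called). Probe sets of a gene share transcripts and are not independent. Trp53inp1 1416927_at passed the filter on low values only through B 0 h, so its part in these counts supports nothing.

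Trp53inp1 encodes a stress-induced nuclear protein that enhances p53 activity and also takes part in autophagy. Its brightest probe set read 9.25, 9.03 and 9.15 on B LPS arrays, and 11.83, 11.85 and 11.80 on B 0 h arrays. The gap between the groups was many times the spread within either. The change was -2.68 ± 0.08 (limma adjusted p = 6.95e-13).

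The second probe set of Trp53inp1 (1416927_at) read 3.78, 3.69 and 3.40 on B LPS arrays, and 6.87, 6.94 and 6.74 on B 0 h arrays. It fell by 3.23 on the log2 scale (SE 0.18, limma adjusted p = 1.84e-09) in a range where signals under about 4 are compressed. This probe set passed the filter on low values only through B 0 h. Its fall therefore adds no support to that of the brightest probe set, and its part in every count of probe sets supports nothing.

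In T cells the brightest probe set of Trp53inp1 read 12.52, 12.52 and 12.53 at 0 h, 13.15, 13.33 and 13.26 at 4 h and 13.11, 12.86 and 12.96 at 14 h. The 3 times did not overlap, with 4 h the highest and 14 h between. The rises over 0 h were 0.72 ± 0.08 at 4 h (limma adjusted p = 2.05e-06) and 0.45 ± 0.08 at 14 h (adjusted p = 1.59e-04), and the change between 4 h and 14 h was -0.27 ± 0.08 (adjusted p = 0.0109; leaving out T ConA 14 h replicate 2 gave 0.0550). The second probe set lay at 2.30 to 3.53 on all T cell arrays, where a change is compressed by the floor. There it was 0.53 higher at 4 h (adjusted p = 0.0231, and 0.0695 without the 2 arrays that stood apart) and 0.68 higher at 14 h (adjusted p = 0.00507).

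Phlda3 encodes a small lipid-binding protein that keeps the growth kinase Akt from the membrane. Since it passed the filter only through the T ConA 4 h group, the fit over all genes with no filter is given beside its tests. Its T cell readings were 3.39, 2.97 and 3.76 at 0 h, 5.62, 5.59 and 5.46 at 4 h and 4.96, 4.74 and 4.64 at 14 h. The 3 times did not overlap. The rises over 0 h were 2.18 ± 0.25 at 4 h (limma adjusted p = 4.48e-06, and 9.05e-05 with no filter) and 1.40 ± 0.25 at 14 h (adjusted p = 2.38e-04, and 0.00208 with no filter), against 0 h arrays under 4, where signals are compressed.

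Phlda3 was lower at 14 h than at 4 h of ConA, with a difference of -0.77 ± 0.25 (limma adjusted p = 0.0223), a call that was lost with no filter (adjusted p = 0.0789). It was also lost without T ConA 4 h replicate 1 or 2 or T ConA 14 h replicate 2 or 3 (adjusted p = 0.0569, 0.0555, 0.0576 and 0.0719). Without the 2 arrays that stood apart, the rise at 4 h was 1.95 (adjusted p = 2.18e-04), and the 14 h rise was 1.20 (adjusted p = 0.00281). In B cells it read 2.72, 2.55 and 3.72 on B LPS arrays, and 2.62, 2.56 and 2.89 on B 0 h arrays. These were near the floor and overlapped, and the difference of 0.31 ± 0.25 was not called (adjusted p = 0.283). It was called after cyclic loess (0.75) and quantile normalization (0.93), and was -0.05 without B LPS replicate 3.

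Zmat3 encodes a zinc finger protein that binds RNA and is induced by p53. It read 5.50, 4.83 and 5.26 on B LPS arrays, and 5.97, 6.39 and 6.09 on B 0 h arrays. The groups did not overlap. The change was -0.95 ± 0.14 (limma adjusted p = 2.59e-05).

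In T cells Zmat3 read 7.74, 7.65 and 7.59 at 0 h, 7.88, 7.94 and 8.01 at 4 h and 7.33, 7.50 and 7.44 at 14 h. The 3 times did not overlap, although the differences from 0 h, 0.28 ± 0.14 at 4 h and -0.23 ± 0.14 at 14 h, were not called (limma adjusted p = 0.0964 and 0.161). A fit on the arrays of the comparison alone called both (adjusted p = 0.00916 and 0.0189). The change between 4 h and 14 h, -0.52 ± 0.14, was called (adjusted p = 0.00846).

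Between 4 h and 14 h of ConA, 4 of the 6 genes fell (Mdm4, Trp53inp1, Phlda3 and Zmat3) and none rose, against 48.9% of all genes called (27.4% higher, 21.5% lower), with 0 higher and 4 lower at an unadjusted limma p under 0.05. The count includes Phlda3, which passed the filter only through T ConA 4 h, so the part of Phlda3 supports nothing. The count was 2 without T ConA 4 h replicate 2 and 1 without T ConA 14 h replicate 2. Over probe sets it was 4 lower and 0 higher of 11, against 25.7% lower and 21.4% higher of all (47.1% called), and 1 with either of these arrays left out. Mdm2 and Ccng1 differed by -0.10 ± 0.13 and -0.06 ± 0.08 and were not called (limma adjusted p = 0.563 and 0.584). The 4 genes that fell include the inhibitor Mdm4, which had also been lower at 4 h than at 0 h.

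**Figure D3:**
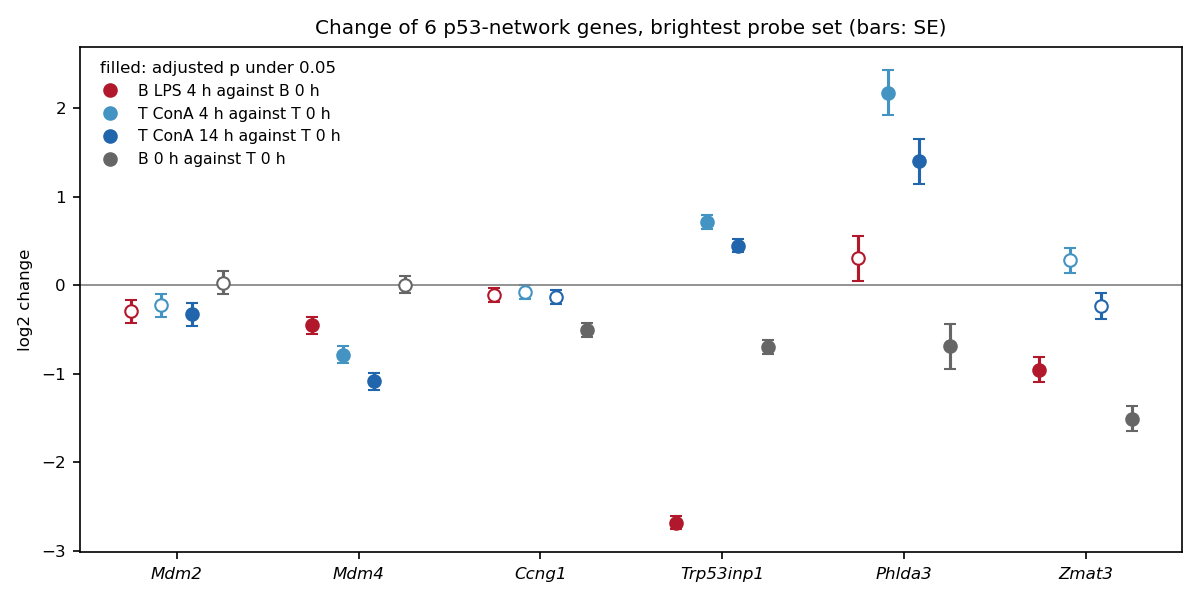
log2 change (vertical axis) of the brightest probe set of each gene in B LPS 4 h against B 0 h, T ConA 4 h and 14 h against T 0 h, and B 0 h against T 0 h; bars are standard errors and filled points had a limma adjusted p under 0.05. Trp53inp1 has a B LPS point at -2.68 and T cell points above 0, and the Mdm4 points of the 3 activation comparisons are all below 0.

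The B cell response to LPS and the T cell response to ConA at 4 h were compared by the interaction between cell type and activation, given as the B LPS response minus the T ConA response. The activators differ as well as the cells, and the comparison does not separate them. Of the 6 genes, 4 had a different response, 1 higher in B cells and 3 lower, against 66.1% of all genes (31.3% higher, 34.9% lower). The part of Phlda3 in this count supports nothing, since it passed the filter only through T ConA 4 h. Trp53inp1 differed by -3.40 ± 0.11 (limma adjusted p = 9.48e-12), with a fall in B cells and a rise in T cells. Phlda3 differed by -1.87 ± 0.36 (adjusted p = 4.17e-04, and 0.00321 with no filter), where B cells were near the floor, and Zmat3 by -1.24 ± 0.20 (adjusted p = 9.96e-05).

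Mdm4 differed by 0.33 ± 0.14 (limma adjusted p = 0.0429), and this call was lost in 15 of the 27 alternative settings tried, with an adjusted p of up to 0.362. With every probe set as a row, its adjusted p was 0.0518. The responses of Mdm2 and of the brightest Ccng1 probe set differed by -0.07 ± 0.19 and -0.03 ± 0.11 and were not called, with 95% intervals of -0.47 to 0.33 and -0.27 to 0.21. Over probe sets, 5 of 11 had a lower response in B cells and none a higher one (1 higher at an unadjusted limma p under 0.05), against 30.9% lower and 31.0% higher of all (61.9% called). Among them were both probe sets of Trp53inp1 (-3.40 and -3.75) and Ccng1 1450016_at (-0.58 ± 0.12, adjusted p = 8.79e-04). Trp53inp1 1416927_at passed the filter only through B 0 h, so its part in this count supports nothing.

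The resting cells were compared as B 0 h against T 0 h. By the brightest probe sets, 4 of the 6 genes were lower in B cells and none was higher, against 76.6% of all genes called (25.4% higher, 51.1% lower), with 0 higher and 4 lower at an unadjusted limma p under 0.05. The 4 include Phlda3, whose part in the count supports nothing because of the filter. Lower calls outnumbered higher ones over the whole table, whose median difference was -0.27. Of all calls, 33.2% were higher in B cells as deposited, against 48.3% with array medians set equal, 48.5% after cyclic loess and 46.1% after quantile normalization.

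Zmat3 was lower in resting B cells than in resting T cells, with a difference of -1.51 ± 0.14 (limma adjusted p = 3.11e-07), with means of 6.15 ± 0.22 in B 0 h and 7.66 ± 0.07 in T 0 h. Ccng1 differed by -0.51 ± 0.08 (adjusted p = 4.61e-05), with means of 10.58 ± 0.08 in B 0 h and 11.08 ± 0.07 in T 0 h. Trp53inp1 differed by -0.70 ± 0.08 (adjusted p = 1.73e-06). All 3 kept this direction and their call under each of the 3 other normalizations.

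Phlda3 was -0.69 ± 0.25 in the same comparison (limma adjusted p = 0.0248), near the floor in both groups, and lost its call with array medians set equal, after quantile normalization and with no filter (adjusted p = 0.149, 0.111 and 0.0805). It also lost it without T 0 h replicate 1, T 0 h replicate 3, B 0 h replicate 1 or B 0 h replicate 2 (adjusted p = 0.0558, 0.116, 0.0642 and 0.0725). Mdm2 and Mdm4 had differences of 0.03 ± 0.13 and 0.01 ± 0.10 by their brightest probe sets and were not called, but after cyclic loess both were called higher in B 0 h (0.36 and 0.23).

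The other probe sets of 4 genes gave a higher signal in resting B cells. The rule of all probe sets called 5 higher and 4 lower of 11, against 30.2% higher and 45.2% lower of all (75.5% called). Because of the filter on low values, the parts of Phlda3 and of Trp53inp1 1416927_at in this count support nothing. The latter passed it only through B 0 h, the group where it is high. Trp53inp1 1416927_at was 6.74 to 6.94 on B 0 h arrays, and 2.30 to 3.07 on T 0 h arrays, a difference of 4.13 ± 0.18 (limma adjusted p = 1.60e-10) against the -0.70 of its brightest probe set. Mdm2 1427718_a_at was higher by 2.01 ± 0.54 (adjusted p = 0.00444), and by 1.58 ± 0.11 without the 2 arrays that stood apart.

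Mdm4 1419558_at was higher by 0.91 ± 0.13 (limma adjusted p = 3.11e-05). Ccng1 1450016_at was higher by 1.09 ± 0.08 (adjusted p = 6.24e-08) and 1450017_at by 0.65 ± 0.23 (adjusted p = 0.0234), opposite to the brightest probe set. For Trp53inp1 and Ccng1 the probe sets thus disagree on which resting cell has more, and the transcript each probe set reads was not tested.

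By the brightest probe set, Trp53inp1 ran in the order B LPS 4 h (9.14 ± 0.11), B 0 h (11.83 ± 0.03), T 0 h (12.53 ± 0.004), T ConA 14 h (12.97 ± 0.12) and T ConA 4 h (13.25 ± 0.09), with no overlap between any neighbours. Zmat3 ran in the order B LPS 4 h (5.20 ± 0.34), B 0 h (6.15 ± 0.22), T ConA 14 h (7.43 ± 0.09), T 0 h (7.66 ± 0.07) and T ConA 4 h (7.94 ± 0.06), again with no overlap. For Mdm4 the T 0 h and B 0 h arrays overlapped at the top, and for Phlda3 the B 0 h, B LPS and T 0 h neighbours overlapped at the bottom. For Mdm2 the neighbours overlapped at every step but that between T ConA 4 h and T 0 h, and for Ccng1 at every step but that between B 0 h and T ConA 14 h.

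Genes whose 5 group means ran most like those of a member were found by the largest difference between the centred means, over 9043 other genes. Closest to Trp53inp1 were 2610035D17Rik (0.23), Gdpgp1 (0.32) and Pld3 (0.34). Closest to Zmat3 were 4932438A13Rik (0.20), Wdr90 (0.20) and Dnaja4 (0.28), and closest to Phlda3 were Bbs12 (0.23), Per1 (0.31) and Dgat1 (0.32). For Mdm4 they were Zfp362 (0.13), Kat6a (0.15) and Phf12 (0.17), for Mdm2 Anks3, Nanp and Akirin2 (0.08 each) and for Ccng1 Prpsap1 (0.07), Fam120a (0.07) and Grsf1 (0.08). None of these is on the lists of p53 targets and regulators used here.

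The other genes of the p53 circuit were set beside these 6. Among 13 targets listed under arrest and growth control, 6 rose and 6 fell in B LPS (median 0.06). At both times of ConA 4 rose and 4 fell (medians 0.18 and 0.17). The list also holds genes that act back on p53, such as Rchy1, so these counts are not of growth-restraining genes alone. Sesn2 passed the filter on low values only through B LPS, so its part in the counts supports nothing. Of all genes, 37.6% rose and 42.3% fell in B LPS, 33.4% and 32.5% in T ConA 4 h, and 36.6% and 31.9% in T ConA 14 h. Cdkn1a, the cyclin-dependent kinase inhibitor p21 and the classic p53 target, read 6.17, 5.98 and 6.08 on B LPS arrays, and 3.39, 3.42 and 3.42 on B 0 h arrays. In T cells it read 4.37, 3.35 and 3.20 at 0 h, 7.59, 7.17 and 6.99 at 4 h and 5.98, 6.18 and 6.06 at 14 h. The activated arrays lay above the 0 h arrays without overlap in both cell types.

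Cdkn1a rose by 2.67 ± 0.23 in B LPS (limma adjusted p = 1.03e-07), by 3.61 ± 0.23 in T ConA 4 h (adjusted p = 1.04e-08) and by 2.43 ± 0.23 in T ConA 14 h (adjusted p = 5.95e-07), where most 0 h arrays were under 4 and so compressed. With the mean of its probe sets the B LPS rise was 1.41 (adjusted p = 2.92e-07). Plk3, a stress-responsive polo-like kinase, rose by 4.38 ± 0.19 in T ConA 4 h and by 1.89 ± 0.19 in T ConA 14 h. Sesn1, a sestrin that restrains mTORC1 signalling, fell by 2.70 on the log2 scale in B LPS, by 1.82 in T ConA 4 h and by 1.84 in T ConA 14 h, while its relative Sesn2, which passed the filter only through B LPS, rose by 2.21 there (limma adjusted p = 1.42e-07, and 5.29e-06 with no filter). Rchy1, a p53-induced ubiquitin ligase that targets p53, fell by 2.98 in B LPS, Ddit4, another brake on mTORC1, fell by 2.17 in T ConA 4 h, and Gadd45a, a stress sensor, fell by 1.76 in T ConA 14 h.

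Of 12 listed targets that promote cell death, 7 were tested. Bax had no probe set annotated to it alone, and Tnfrsf10b, Perp, Pidd1 and Eda2r did not pass the filter on low values. Among the 7 tested, 5 rose and 0 fell in B LPS (median 2.01). With ConA, 6 rose and 0 fell at 4 h, and 5 rose and 0 fell at 14 h (median 0.76 at both). Of all genes, 37.6%, 33.4% and 36.6% rose in these comparisons. At an unadjusted limma p under 0.05 the lower counts were 1 (Apaf1, the apoptosome scaffold, -0.25), 0 and 0, and after cyclic loess 1 was called lower in B LPS. Aen, a nuclease that enhances apoptosis, read 10.21, 10.25 and 10.28 on B LPS arrays, and 6.76, 7.35 and 7.10 on B 0 h arrays. Its rise was 3.18 ± 0.11 in B LPS (limma adjusted p = 4.12e-12), 1.86 ± 0.11 in T ConA 4 h and 0.84 ± 0.11 in T ConA 14 h. Pmaip1 (Noxa), a BH3-only inducer of mitochondrial death, rose by 2.01 ± 0.10 in B LPS, 1.80 ± 0.10 in T ConA 4 h and 1.35 ± 0.10 in T ConA 14 h. Bbc3 (Puma), of the same class, rose by 2.80 ± 0.23 in B LPS, and the death receptor Fas by 2.14 ± 0.16. Ei24, a p53-induced membrane protein, rose by 0.80 ± 0.09 after 4 h of ConA and 0.76 ± 0.09 after 14 h, and Rps27l, a ribosomal protein relative, by 0.76 ± 0.11 and 0.99 ± 0.11.

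Among 5 DNA repair targets, 4 fell and 1 rose in B LPS (median -1.45), 4 fell and 0 rose in T ConA 4 h (median -0.53), and 4 fell and 1 rose in T ConA 14 h (median -0.84). Of all genes, 42.3%, 32.5% and 31.9% fell. Ddb2, which recognises ultraviolet damage, changed by -1.85 ± 0.08 in B LPS, -0.37 ± 0.08 in T ConA 4 h and -0.90 ± 0.08 in T ConA 14 h. Rrm2b, the p53-inducible subunit of ribonucleotide reductase, changed by -1.83 ± 0.12 in B LPS, -0.81 ± 0.12 in T ConA 4 h and -0.84 ± 0.12 in T ConA 14 h. With its probe set of largest variance neither ConA change of Rrm2b was called (-0.82 and -0.18, adjusted p = 0.218 and 0.812). Ercc5, a repair endonuclease, changed by -1.45 ± 0.14, -0.87 ± 0.14 and -0.53 ± 0.14 in B LPS, T ConA 4 h and T ConA 14 h, and by -0.73, -0.43 and -0.20 with the mean of its probe sets. Xpc, which senses damaged DNA, was the gene that rose in B LPS (0.48), and it fell in T ConA 4 h (-0.53 ± 0.11) and T ConA 14 h (-0.85 ± 0.11). Polk, a lesion-bypass polymerase, changed by -0.81 ± 0.15 in B LPS and was the gene that rose in T ConA 14 h (0.38, limma adjusted p = 0.0407). That rise lost its call in 11 of 27 settings, among them without the 2 arrays that stood apart (0.35, adjusted p = 0.112) and after cyclic loess (0.32, adjusted p = 0.0745).

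Among 18 regulators of p53, 6 rose and 6 fell in B LPS, 6 rose and 7 fell in T ConA 4 h, and 4 rose and 4 fell in T ConA 14 h (medians 0.18, -0.10 and -0.07), where 37.6%, 33.4% and 36.6% of all genes rose and 42.3%, 32.5% and 31.9% fell. Prkdc, the catalytic subunit of the DNA-dependent kinase, changed by -2.96 ± 0.09 in B LPS, -1.18 ± 0.09 in T ConA 4 h and -0.86 ± 0.09 in T ConA 14 h. Rrs1, a ribosome assembly factor that acts with the ribosomal proteins that bind Mdm2, rose by 2.24 ± 0.07 in B LPS, 1.36 ± 0.07 in T ConA 4 h and 0.83 ± 0.07 in T ConA 14 h. Usp10, a deubiquitinase of p53, rose by 1.46 ± 0.08 in B LPS, where the checkpoint kinase Chek2 changed by -1.53 ± 0.16. The checkpoint kinase Chek1 averaged 5.74 ± 0.30 in T ConA 14 h and 3.60 ± 0.12 in T 0 h, a rise of 2.14 ± 0.21 (limma adjusted p = 7.19e-07). It passed the filter only through T ConA 14 h, and with no filter the adjusted p was 1.99e-05. The part of Chek1 in the counts of regulators therefore supports nothing. Usp7, the deubiquitinase of p53 and Mdm2, was not called in any of the 3 (-0.13, -0.14 and -0.16, SE 0.11 each), and Cdkn2a, the source of the Mdm2 inhibitor Arf, was at 2.24 to 2.31 in every group mean.

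Between 14 h and 4 h of ConA, Plk3 changed by -2.49 ± 0.19, Cdkn1a by -1.18 ± 0.23 and Aen by -1.02 ± 0.11, while Chek1 rose by 2.85 ± 0.21 (limma adjusted p = 1.90e-07, and 7.01e-06 with no filter). Of the arrest and growth targets 1 rose and 4 fell, of the death targets 0 rose and 3 fell, and of the repair targets 0 rose and 2 fell, where 27.4% of all genes rose and 21.5% fell. Without the 2 arrays that stood apart, 1 death target was called higher and 2 lower. In resting cells, Fas (-2.62 ± 0.16), Ercc5 (-1.89 ± 0.14), Plk3 (-1.69 ± 0.19) and Ddb2 (-1.35 ± 0.08) were lower in B 0 h than in T 0 h, and Pml, a nuclear body protein (2.67 ± 0.08), was higher. Cdkn1a had a difference of -0.23 ± 0.23 between the resting cells and was not called (limma adjusted p = 0.386).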

How the data were processed

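Total RNA of 15 spleen lymphocyte samples was measured on Affymetrix arrays. Per the submitters' processing notes, the authors used GCRMA, which corrects background and normalizes arrays together, and deposited log2 signals per probe set; the sources used here name no version. No scanner files were used. Gene names came from the platform annotation, in which 34945 probe sets had 1 gene symbol, 932 several and 9160 none, beside 64 controls. Each of 18193 genes was represented by its brightest probe set, and the 9044 genes with a highest group mean of at least 5 were tested. A second fit took all 19124 probe sets past that level.

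All 5 groups entered 1 linear model (limma 3.58.1, R 4.3.3) with 10 residual and 3.16 prior degrees of freedom, with Benjamini-Hochberg adjustment within each comparison. The pipeline was tested on simulated data. The number of arrays limits the precision. Arrays of a group correlated at 0.995 to 0.999, and arrays of different groups at 0.893 to 0.990. Replicate numbers were checked for pairing, since the labels do not say whether they mark a shared animal or batch. Over 30 same-numbered pairs the correlation of deviations from the group means was -0.46 to 0.24, and 3 exceeded 0.1. With 3 arrays a group this cannot exclude pairing, and no block was used.

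The members and the lists (13, 7, 5 and 18 tested genes of 15, 12, 5 and 22 listed) were chosen with earlier results of these data known. From each list, up to 4 called genes with the largest change in a comparison were named, and Cdkn1a, Cdkn2a and Usp7 always; Apaf1, and Xpc and Polk where they moved against their list, were named after their values were seen. Alternatives covered normalization, the level filter, the choice of probe set, the variance prior, a replicate block, the arrays fitted and each array left out. Leaving out the 2 arrays that stood apart, all alternatives for the lists, and the levels of Xist and Y-linked genes were added after seeing the data.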

Additional observations from a re-analysis of the deposited data

Results flagged for a closer look

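The difference between the 4 h responses, B LPS minus T ConA, includes the difference between the 2 activators. It passed the interaction test (limma, adjusted p under 0.05) for 66.1% of all genes (31.3% higher, 34.9% lower). Of 13 arrest and growth targets 4 were higher and 6 lower, and of 7 death targets 4 were higher and 1 lower. Of 5 repair targets 1 was higher and 4 lower, and of 18 regulators 7 were higher and 6 lower. Because of the filter on low values, the parts of Sesn2 and Chek1 in these counts support nothing. Named here are the called members and, from each list, up to 4 called genes with the largest change, and Cdkn1a. Among the members these were Trp53inp1 (-3.40, and -3.75 for probe set 1416927_at), Phlda3 (-1.87), Zmat3 (-1.24), Ccng1 probe set 1450016_at (-0.58) and Mdm4 (0.33). Among arrest and growth targets these were Rchy1 (-2.80), Plk3 (-2.54), Sesn2 (2.11), Ppm1d (-1.11) and Cdkn1a (-0.94), the last with adjusted p = 0.0221 and a call lost in 7 of 27 settings. Among death targets these were Bbc3 (2.17), Fas (1.41), Aen (1.31) and Ei24 (-0.85). Among repair targets these were Ddb2 (-1.48), Rrm2b (-1.02), Xpc (1.01) and Polk (-0.95). The call of Rrm2b was lost with the mean of its probe sets (-0.26, adjusted p = 0.392) and with that of largest variance (-1.01, adjusted p = 0.274). Sesn2 passed the level filter only through B LPS, and its adjusted p was 2.34e-04 with no filter. Phlda3 passed it only through T ConA 4 h, with a limma adjusted p of 0.00321 with no filter. Trp53inp1 probe set 1416927_at passed it only through B 0 h. Among regulators these were Hipk2 (-1.84), Prkdc (-1.78), Chek1 (1.18) and Chek2 (-1.03). Chek1 passed the level filter only through T ConA 14 h, a group outside this comparison, with a limma adjusted p of 0.0151 with no filter. Its means in the groups compared were 2.89 to 3.75, all under 4 and so compressed.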

How the results depend on the processing

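Each result was recomputed under 27 alternative settings. Of 22 called gene-by-comparison values of the 6 genes, 11 kept direction and call in every setting that tested them, among them all values of Zmat3 in B LPS, T ConA 14 h against 4 h, resting cells and the interaction, the fall of Trp53inp1 in B LPS, and the rises of Trp53inp1 and Phlda3 with ConA. Of the 177 called values of list genes, the 96 named under the rule or printed were recomputed, of which 88 did so and 1 changed sign: Rrm2b in resting cells, -0.16 with the mean of a gene's probe sets. The count of called genes among the 6 was 5 in B LPS after cyclic loess or quantile normalization, 5 in T ConA 4 h after cyclic loess, and 2 in T ConA 14 h against 4 h with the mean of the probe sets or the probe set of largest variance. Leaving out 1 array at a time, this last count ranged from 1 to 4, and its count of probe sets from 1 to 4. Called probe sets were 3 in T ConA 4 h with a group mean of at least 7, and 2 in T ConA 14 h against 4 h with only those groups fitted. With the mean of the probe sets, Ccng1 was 0.22 in B LPS, 0.38 and 0.41 in T ConA 4 h and 14 h, 0.024 in 14 h against 4 h and 0.41 in resting cells, Mdm2 was 0.14 in 14 h against 4 h and Trp53inp1 was 1.72 in resting cells. With the probe set of largest variance, Ccng1 was 0.44, 1.02, 0.93 and 1.09 in B LPS, T ConA 4 h, T ConA 14 h and resting cells, Mdm4 was 0.19 in B LPS, Mdm2 was 0.25 in T ConA 14 h and 0.51 in 14 h against 4 h, and Trp53inp1 was 0.15 in 14 h against 4 h and 4.13 in resting cells. Values near 0 also changed sign. With equal medians the interactions of Mdm2 and Ccng1 were 0.018 and 0.054, and after quantile normalization that of Mdm2 was 0.054. Without the 2 arrays that stood apart, Mdm2 and Mdm4 in resting cells were -0.04 and -0.05. Leaving out 1 array at a time, the ranges were -0.17 to 0.094 for the Mdm2 interaction, -0.11 to 0.021 for the Ccng1 interaction, -0.13 to 0.12 for Mdm2 and -0.066 to 0.067 for Mdm4 in resting cells, -0.054 to 0.53 for Phlda3 in B LPS (lowest without B LPS replicate 3) and -0.17 to 0.0057 for Mdm2 in 14 h against 4 h. After quantile normalization Zmat3 was -0.41 in B LPS and -0.73 in the interaction. The cause was not tested. The labels do not say whether equal replicate numbers mark paired samples, and the check on 3 arrays a group cannot exclude it. A replicate block took Mdm2 in B LPS past the threshold (-0.30, adjusted p = 0.0491) and Mdm4 in the interaction back over it (0.33, adjusted p = 0.0640), and changed no other call of the 6 genes. Signal near the floor limits Phlda3 in B cells and resting T cells, and the second Trp53inp1 probe set in T cells.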
